A study of Homo sapiens with 16 samples.

Results

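What an EZH2 inhibitor (EZH2i) adds to cells in which PRMT5 is already inhibited was read from 8 of the 16 RNA libraries of the study. The tested libraries are 4 from MOLM-13 cells given 1 µM EZH2i together with 1 µM PRMT5 inhibitor (PRMT5i), called the combination, and they are set against 4 from cells given 1 µM PRMT5i alone. MOLM-13 is a human acute myeloid leukaemia line that carries an MLL fusion. The other 8 libraries, 4 from cells given 1 µM EZH2i alone and 4 from cells given 0.005% DMSO as vehicle, entered the same model and give the effect of EZH2i without PRMT5i. Treatment lasted 4 days in every group, all cells come from the 1 line, and neither compound is named in the labels. The labels do not say that replicates came from separate cultures, so p-values reflect only how these libraries vary, and that variation may be technical.

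EZH2 is the catalytic subunit of polycomb repressive complex 2 (PRC2), which methylates lysine 27 of histone H3 and is associated with silenced genes, many of which start in CpG-rich DNA. PRMT5 places symmetric dimethyl marks on arginines of histones, of spliceosomal Sm proteins and of other substrates. Both enzymes have been studied as drug targets in myeloid leukaemia.

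The combination libraries held 35.3 to 49.8 M expected counts and the PRMT5i libraries 40.6 to 51.4 M. The scaling factors of the normalisation were 1.03 to 1.07 in the combination and 0.976 to 1.00 with PRMT5i. On the first principal component, which held 36.5% of the variance, the combination libraries scored 30.2 to 34.4, the PRMT5i libraries 35.8 to 47.1, and all EZH2i and DMSO libraries −43.1 to −32.0. DMSO replicate 1 stood apart, with the lowest scaling factor of the 16 libraries (0.861) and 1.70% of its counts on mitochondrial genes. Myeloid and MLL-leukaemia markers PTPRC, CD33, SPI1, LYZ, FLT3, CSF1R, HOXA9 and MEIS1 had counts in all 16 libraries. The epithelial marker CDH1 had 0 counts in all, while MS4A1 reached at most 0.0266 and CD3E at most 0.118 CPM before scaling. CPM are counts per 1 M counts of a library, and all other levels are after scaling of the library sizes.

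Messenger RNA of the drug targets was measured first. EZH2 (ENSG00000106462.10, chr7:148807383-148884321 in GRCh38) had 36.1, 35.1, 35.02 and 33.8 CPM in the combination, against 23.0, 25.4, 24.8 and 26.2 CPM with PRMT5i. The groups did not overlap, yet the log2 fold change of 0.50 (SE 0.16) did not pass an adjusted p of 0.05 in edgeR's quasi-likelihood test (adjusted p = 0.0942). It passed in DESeq2 (log2 0.50, adjusted p = 0.0356). In edgeR it also passed with only the 2 groups fitted (adjusted p = 0.000234) and without DMSO replicate 1 (adjusted p = 0.00031). It did not pass with the replicate block or with 1 library of the 2 groups left out. DMSO replicate 1 had 21.5 CPM, and the other DMSO libraries had 42.4 to 43.8 CPM. EZH2 averaged 48.3 ± 0.464 CPM with EZH2i alone and 37.6 ± 10.7 CPM with DMSO (SD, n = 4 each). PRMT5 (ENSG00000100462.15, chr14:22920511-22929585) averaged 124 ± 5.14 CPM in the combination and 119 ± 3.35 CPM with PRMT5i, a log2 fold change of 0.05 (SE 0.08, adjusted p = 0.85). An antisense gene, PRMT5-AS1, overlaps 27.1% of the exon bases of PRMT5. Enzyme activity was not measured.

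Of 16555 genes tested, 688 differed between the combination and PRMT5i (4.16%). Of these, 482 were higher in the combination (2.91% of the genes tested, median log2 fold change 0.64) and 206 were lower (1.24%, median −0.57). Most changes were small: 135 genes (0.815%) differed by at least 1 on the log2 scale, 107 of them higher (0.646%) and 28 lower (0.169%). Among the 107, 75 had a mean under 1 CPM with PRMT5i, and 69 a mean under 1 CPM with DMSO, so most of the large increases were in genes with little RNA in those cells. PRMT5i against DMSO changed 5847 genes (35.3%) in the same model, and EZH2i against DMSO 1259 (7.6%).

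The count rested on all replicates. Leaving out 1 library gave 263 genes without PRMT5i replicate 3, 327 without PRMT5i replicate 4, 373 without combination replicate 2, 393 without combination replicate 1 and 438 without combination replicate 4. With replicates 1 and 2 alone 1 gene passed, and with replicates 3 and 4 alone 597 passed. The labels name no batch, and these fits of a part of the replicates were chosen after the data had been seen. With that division as a term in the model of all libraries, 908 genes passed. Beside that, 52 of the 81 named genes called in this comparison kept their call without any 1 of the 8 libraries. The others of the 81 that are described below are marked by the libraries whose loss ended the call. GINS2, MCM7, CDC6, TYMS, IFIT3, IFIT5 and DTX3L, described for their promoter letters, are not among the 81. They carry no such mark, whether or not their calls held.

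The DNA around the starts of the 4 protein-coding genes with the largest increase at 5 CPM or more is shown first, because CpG-rich starts are the sequence feature best known for PRC2-repressed genes. Each is the RefSeq promoter in GRCh38.p14, 250 bases before to 50 after the start, read 5′ to 3′ on the gene's strand, with CpG dinucleotides in capitals. They lie for ECI2 at chr6:4135526-4135825 on the minus strand, RGS1 at chr1:192575523-192575822 on the plus strand, SLITRK6 at chr13:85799370-85799669 on the minus strand and RSAD2 at chr2:6865635-6865934 on the plus strand.
ECI2: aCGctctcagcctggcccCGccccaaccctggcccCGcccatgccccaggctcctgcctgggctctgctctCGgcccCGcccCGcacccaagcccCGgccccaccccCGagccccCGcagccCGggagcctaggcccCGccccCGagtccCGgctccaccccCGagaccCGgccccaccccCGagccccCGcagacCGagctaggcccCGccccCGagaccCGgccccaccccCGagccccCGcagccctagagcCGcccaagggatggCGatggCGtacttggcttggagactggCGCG
RGS1: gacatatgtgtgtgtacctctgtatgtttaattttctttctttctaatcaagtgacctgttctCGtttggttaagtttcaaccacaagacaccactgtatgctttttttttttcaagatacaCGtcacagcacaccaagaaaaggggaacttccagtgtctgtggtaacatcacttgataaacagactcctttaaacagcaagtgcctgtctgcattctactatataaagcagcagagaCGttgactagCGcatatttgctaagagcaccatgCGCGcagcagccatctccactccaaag
SLITRK6: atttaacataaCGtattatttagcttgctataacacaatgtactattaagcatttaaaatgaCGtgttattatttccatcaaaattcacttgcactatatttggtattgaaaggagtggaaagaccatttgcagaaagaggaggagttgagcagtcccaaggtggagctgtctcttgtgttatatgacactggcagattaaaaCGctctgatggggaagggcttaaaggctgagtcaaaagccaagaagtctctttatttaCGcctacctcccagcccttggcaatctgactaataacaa
RSAD2: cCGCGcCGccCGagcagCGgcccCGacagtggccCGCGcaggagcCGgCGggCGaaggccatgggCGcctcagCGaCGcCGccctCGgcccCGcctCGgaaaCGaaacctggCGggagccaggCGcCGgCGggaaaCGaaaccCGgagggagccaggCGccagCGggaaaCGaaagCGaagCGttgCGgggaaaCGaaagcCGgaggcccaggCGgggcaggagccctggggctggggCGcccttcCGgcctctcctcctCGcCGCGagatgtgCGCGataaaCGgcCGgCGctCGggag
The ECI2 and RSAD2 starts hold 28 and 45 CpG dinucleotides, and those of RGS1 and SLITRK6 hold 6 and 4. Observed over expected CpG was 0.669, 1.06, 0.469 and 0.358 for ECI2, RSAD2, RGS1 and SLITRK6, and 49.0% of all 27305 RefSeq promoters reached 0.6 or more. Among the genes tested, 65.6% had a RefSeq promoter, and 80.1% of those reached 0.6, with a median of 0.834. Of the 4 starts, RSAD2 lies above that median and the other 3 below it. Each gene is shown by 1 start, and any other starts of these genes were not looked at.

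ECI2 (ENSG00000198721.12, chr6:4115689-4135597), an isomerase of fatty acid oxidation, had 8.22, 8.03, 9.47 and 11.1 CPM in the combination, against 1.40, 1.15, 1.28 and 1.62 CPM with PRMT5i. Every combination library was several times above every PRMT5i library (log2 fold change 2.76, SE 0.15, adjusted p = 5.23e-08). ECI2 averaged 5.90 ± 0.836 CPM with EZH2i alone and 1.28 ± 0.167 CPM with DMSO, and PRMT5i against DMSO differed by log2 0.09 (adjusted p = 0.699). The gene C6orf201 on the other strand overlaps 27.1% of its exon bases, and with no statement of whether counting used strand, its value is uncertain to that extent. AIG1, a transmembrane lipid hydrolase, had 38.1, 33.4, 32.4 and 37.2 CPM in the combination, against 19.4, 17.4, 11.6 and 15.1 CPM with PRMT5i (log2 1.15, SE 0.16, adjusted p = 0.00079). Here too the PRMT5i libraries lay near DMSO (13.4 ± 2.32 CPM) and the combination near EZH2i alone (36.4 ± 6.88 CPM). SLC35F1 had 17.9 ± 2.74 CPM in the combination and 7.49 ± 2.07 CPM with PRMT5i (log2 1.25, SE 0.24, adjusted p = 0.00751), beside 11.7 ± 3.39 CPM with EZH2i and 5.49 ± 1.74 CPM with DMSO.

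Several of the most increased genes had been lower with PRMT5i than with DMSO, and in the combination lay at or near the DMSO level. Both comparisons rest on the same PRMT5i libraries, so the levels in the groups are given side by side and no count of such genes is read as a result. RGS1 (ENSG00000090104.11, chr1:192575727-192580031), which speeds the switching off of G protein signals, had 31.5, 31.6, 35.7 and 36.7 CPM in the combination, against 10.7, 9.22, 6.91 and 7.76 CPM with PRMT5i. The combination libraries lay within 1 SD of the DMSO mean of 40.5 ± 12.3 CPM and below the EZH2i mean of 84.7 ± 27.3 CPM. Its log2 fold change was 1.97 (SE 0.24, adjusted p = 0.00029) in the combination against PRMT5i, and −2.22 in PRMT5i against DMSO (adjusted p = 1.97e-06). XIRP1, which encodes an actin-binding protein of muscle, had 4.49, 3.16, 4.03 and 4.16 CPM in the combination, against 1.18, 0.914, 1.12 and 0.771 CPM with PRMT5i. It averaged 13.8 ± 2.20 CPM with EZH2i and 4.12 ± 1.33 CPM with DMSO, and the combination against DMSO differed by −0.05 (adjusted p = 0.871). The increase over PRMT5i was 1.98 (SE 0.22, adjusted p = 0.000173).

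ANGPT1, a ligand of the TIE2 receptor, had 46.1, 45.1, 37.5 and 44.2 CPM in the combination, against 20.2, 19.8, 14.3 and 15.3 CPM with PRMT5i (log2 1.31, SE 0.26, adjusted p = 0.00891). The groups were well apart, while DMSO libraries spread over 36.7 ± 19.3 CPM and EZH2i libraries over 61.0 ± 13.7 CPM. DMSO replicates 1 to 4 had 65.2, 22.7, 27.5 and 31.5 CPM. Replicate 1 thus raised the DMSO mean, and every combination library lay above the other DMSO libraries. TRAF1, an adaptor of tumour necrosis factor receptors, averaged 3.50 ± 0.667 CPM in the combination and 1.62 ± 0.197 CPM with PRMT5i (log2 1.11, SE 0.18, adjusted p = 0.00293), below its 5.28 ± 1.15 CPM with DMSO. SPRY1, an inhibitor of receptor tyrosine kinase signalling, averaged 4.15 ± 0.579 CPM in the combination and 2.01 ± 0.496 CPM with PRMT5i (log2 1.04, SE 0.17, adjusted p = 0.00291), against 6.22 ± 1.18 CPM with DMSO. Both therefore stayed lower than in DMSO cells (log2 −0.59 and −0.58 in the combination against DMSO, adjusted p = 0.014 and 0.0117).

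CCND1, the cyclin D1 gene, was higher in the combination than in both PRMT5i and DMSO cells (log2 0.70 against DMSO, adjusted p = 0.0011). It had 14.0, 13.8, 10.9 and 10.1 CPM in the combination, against 5.38, 5.99, 5.97 and 5.37 CPM with PRMT5i (log2 1.11, SE 0.14, adjusted p = 0.000503), and 12.5 ± 2.24 CPM with EZH2i against 7.55 ± 1.16 CPM with DMSO. On the list of MAPK feedback regulators, which also holds this cyclin, CCND1 and SPRY1 were the 2 of 13 tested genes that were higher. Of all genes tested 2.91% were higher. On the list 0 were lower past the threshold, and log2 fold changes ran from −1.62 to 1.11 (median 0.28, against −0.00 over all genes tested).

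Other genes were raised by PRMT5i and higher again in the combination. SLITRK6 (ENSG00000184564.8, chr13:85792787-85806683), a transmembrane protein of neurons, had 7.11, 8.54, 6.59 and 7.16 CPM in the combination, against 2.82, 2.61, 2.01 and 3.06 CPM with PRMT5i. These libraries did not overlap each other or those of the remaining groups, which averaged 1.19 ± 0.319 CPM with EZH2i and 0.622 ± 0.219 CPM with DMSO (log2 1.49, SE 0.20, adjusted p = 0.000705 against PRMT5i). SERPINB2, an inhibitor of plasminogen activators, averaged 5.95 ± 1.01 CPM in the combination and 2.55 ± 0.466 CPM with PRMT5i (log2 1.22, SE 0.26, adjusted p = 0.0132), and 0.894 ± 0.447 CPM with EZH2i against 0.199 ± 0.0743 CPM with DMSO. Its call was lost without any of 3 libraries, and SERPINB10 overlaps 19.9% of its exon bases. IGLL1, part of the surrogate light chain of the pre-B cell receptor, averaged 16.1 ± 3.03 CPM in the combination and 7.12 ± 1.34 CPM with PRMT5i (log2 1.18, SE 0.25, adjusted p = 0.0136, lost without PRMT5i replicate 3 or 4), beside 9.20 ± 2.58 CPM with EZH2i and 3.07 ± 1.36 CPM with DMSO. SERPINI1, the neuroserpin gene, averaged 33.7 ± 3.34 CPM in the combination and 16.9 ± 2.78 CPM with PRMT5i (log2 0.99, SE 0.20, adjusted p = 0.00864).

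**Figure D1:**
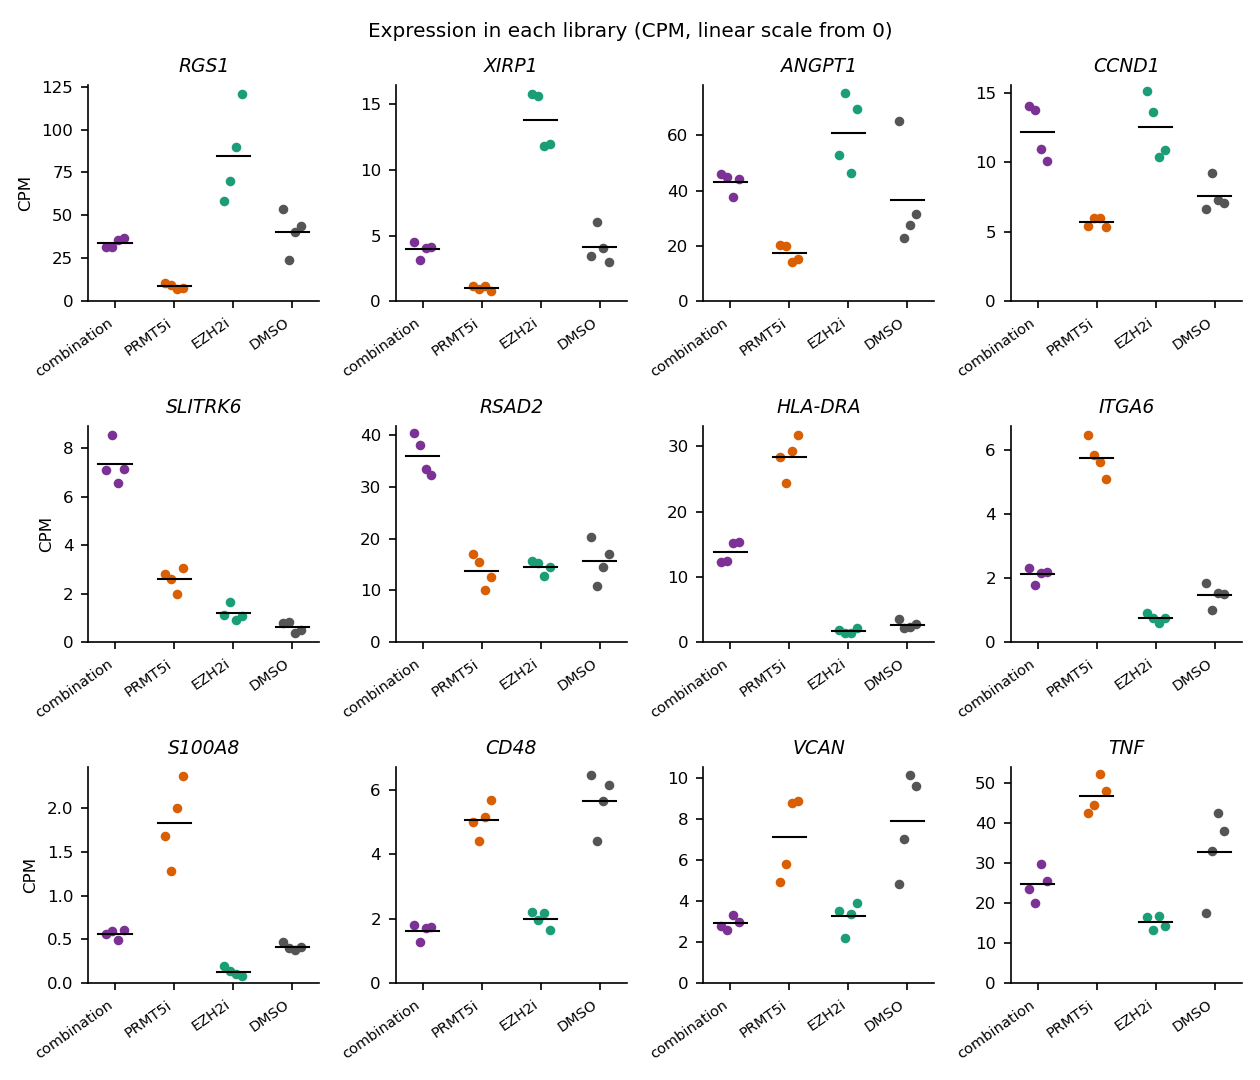
CPM of 12 named genes in each of the 16 libraries on a linear axis from 0, with a point per library and a line at the mean of each group of 4 (combination, PRMT5i, EZH2i, DMSO). RGS1, XIRP1, ANGPT1, CCND1, SLITRK6 and RSAD2 are higher in every combination library than in every PRMT5i library, and HLA-DRA, ITGA6, S100A8, CD48, VCAN and TNF are lower in every one.

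Proliferation genes were higher in the combination. During S phase a cell fires origins, copies DNA and makes histones, and in mitosis it assembles the spindle, and E2F factors drive many of these genes. Of 42 DNA replication and E2F target genes tested, 21 were higher in the combination and 0 lower, where 2.91% of all genes tested were higher. All 42 had a positive log2 fold change, from 0.09 to 0.75 with a median of 0.40. Of 31 mitosis genes, 21 were higher and 0 lower, with a median of 0.59 and values from 0.29 to 0.94. Of 50 tested replication-dependent histone genes, 16 were higher and 0 lower, with a median of 0.49. In whole-culture RNA, fewer cycling cells and less of these RNAs per cell cannot be told apart.

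These increases were partial next to the decrease with PRMT5i. The mean level of the replication list, on a scale of log2(CPM + 0.05), lay at 5.15 to 5.26 in the combination libraries, against 4.72 to 4.86 with PRMT5i, and at 6.05 to 6.13 with EZH2i, against 5.87 to 5.96 with DMSO. For mitosis the ranges were 5.49 to 5.64 in the combination and 4.87 to 5.12 with PRMT5i, beside 6.13 to 6.29 with EZH2i and 5.97 to 6.07 with DMSO. Histone genes lay at 5.35 to 5.75 in the combination, 4.86 to 5.27 with PRMT5i, 6.33 to 6.92 with EZH2i and 6.54 to 6.90 with DMSO. The combination libraries stood above all PRMT5i libraries in each of these lists and below all libraries without PRMT5i. PRMT5i against DMSO had a median of −1.15 for replication (39 of 42 lower, where 18.3% of all genes were), −1.03 for mitosis (29 of 31 lower) and −1.72 for histones (50 of 50 lower), and the combination against DMSO one of −0.75, −0.45 and −1.19.

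**Figure D2:**
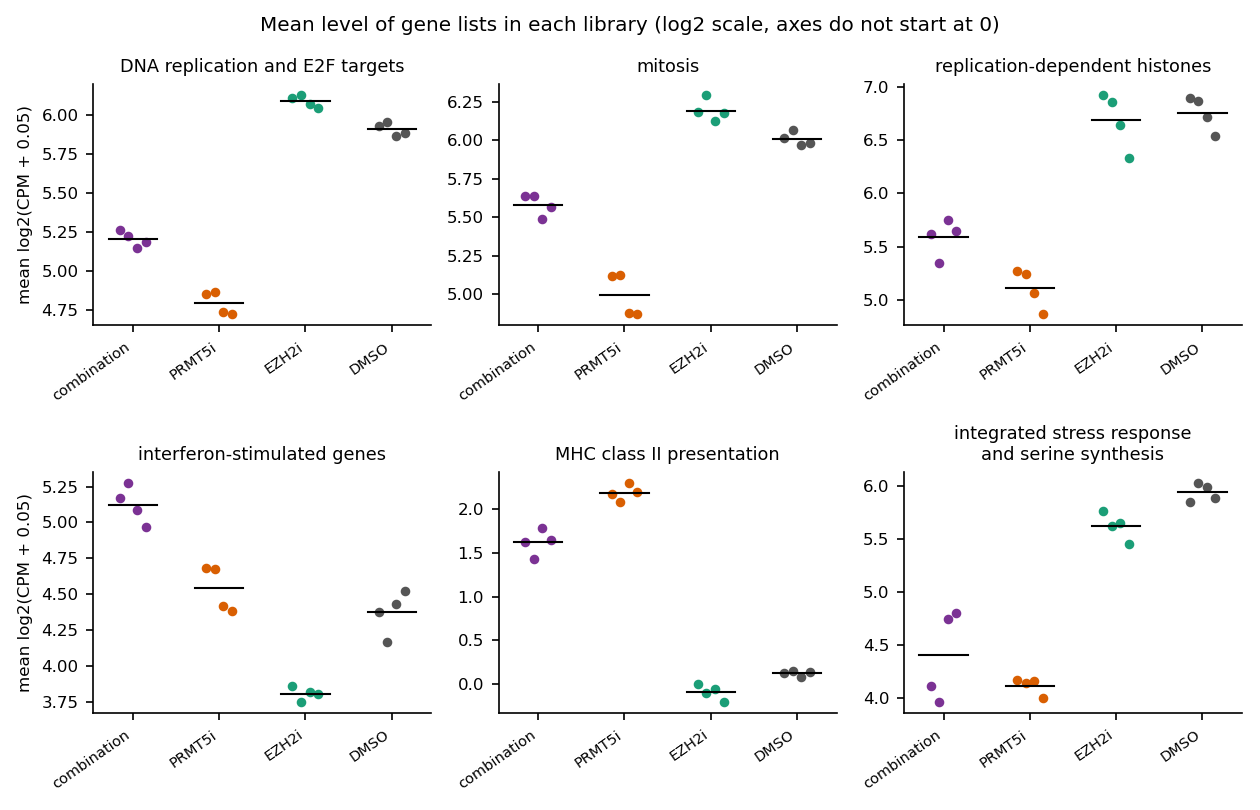
Mean log2(CPM + 0.05) of the tested members of 6 gene lists in each of the 16 libraries, with a point per library and a line at the group mean, on axes that do not start at 0. The combination lies between PRMT5i and DMSO for the 3 proliferation lists, above all other groups for interferon-stimulated genes and between PRMT5i and DMSO for MHC class II, while for stress response and serine synthesis genes combination replicates 3 and 4 stand above replicates 1 and 2.

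Single genes are given with their libraries. ORC1, the largest subunit of the origin recognition complex, had 28.6, 27.9, 28.5 and 29.2 CPM in the combination, against 20.3, 19.1, 18.6 and 17.4 CPM with PRMT5i. The groups were far apart relative to their spread (log2 0.60, SE 0.07, adjusted p = 0.000255), and DMSO cells had 55.4 ± 1.35 CPM. CDC45, a component of the replicative helicase, had 20.7, 20.2, 21.1 and 21.3 CPM in the combination, against 14.8, 13.8, 13.0 and 11.2 CPM with PRMT5i (log2 0.66, SE 0.08, adjusted p = 0.000488). E2F7, a repressive member of the E2F family, averaged 9.53 ± 0.690 CPM in the combination and 5.82 ± 0.249 CPM with PRMT5i (log2 0.71, SE 0.10, adjusted p = 0.000689), close to its 9.90 ± 0.869 CPM with DMSO (combination against DMSO −0.05, adjusted p = 0.695).

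CENPF, a kinetochore protein, averaged 168 ± 17.0 CPM in the combination and 98.7 ± 12.1 CPM with PRMT5i (log2 0.77, SE 0.09, adjusted p = 0.000249). The spindle checkpoint kinases BUB1 and BUB1B had log2 fold changes of 0.59 (adjusted p = 0.000688) and 0.57 (adjusted p = 0.000705). Among histones, HIST1H4I averaged 63.9 ± 7.75 CPM in the combination and 38.1 ± 4.52 CPM with PRMT5i (log2 0.74, SE 0.11, adjusted p = 0.00122), and the linker histone HIST1H1B averaged 258 ± 20.4 CPM in the combination and 162 ± 20.2 CPM with PRMT5i (log2 0.67, SE 0.11, adjusted p = 0.00297). Histone genes are near-identical copies, so reads may be divided wrongly between them and each value is uncertain. Of 6 CDK inhibitors tested, 2 were higher (2.91% of all genes tested were) and 0 lower. They were CDKN1A, the p21 gene (228 ± 9.51 CPM in the combination and 172 ± 6.503 CPM with PRMT5i, log2 0.41, adjusted p = 0.00304), and CDKN3, a phosphatase of CDKs (log2 0.70, adjusted p = 0.00797). CDKN1A was also the 1 of 29 tested p53 targets that changed, where 4.16% of all genes tested did. CDKN2A and CDKN2B had no counts in any library, so no effect of EZH2i on them could be seen. Whether the cells carry these genes was not tested.

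The number of proliferation genes called depended on single libraries. Replication members fell to 10 without PRMT5i replicate 3 or 4 and to 13 without combination replicate 1 or 2. Mitosis members fell to 9 without PRMT5i replicate 3, 11 without PRMT5i replicate 4 and 13 without combination replicate 1. Histone members called ranged from 2 without PRMT5i replicate 3 or 4 to 14 without combination replicate 2, and were 9, 6, 4, 3 and 4 without PRMT5i replicates 1 and 2 and combination replicates 1, 3 and 4. The median in replicates 1 and 2 alone and in replicates 3 and 4 alone was 0.37 and 0.43 for replication, 0.53 and 0.67 for mitosis, and 0.24 and 0.74 for histones.

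E2F sites near the start are shown for the 4 most significant replication genes that hold one. The letters searched were TTTCCCGC, TTTCGCGC, TTTGCCGC and TTTGGCGC on both strands of the 300 promoter bases, and matches are in capitals with 10 bases on either side, 5′ to 3′ on the gene's strand. The windows lie for GINS2 at chr16:85688968-85688995 on the minus strand, MCM7 at chr7:100101567-100101594 on the minus strand, CDC6 at chr17:40287876-40287903 on the plus strand and TYMS at chr18:657604-657631 on the plus strand (RefSeq, GRCh38.p14).
GINS2: tctcgccgtgGCGGGAAAacggcggccg
MCM7: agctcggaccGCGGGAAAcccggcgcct
CDC6: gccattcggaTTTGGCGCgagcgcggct
TYMS: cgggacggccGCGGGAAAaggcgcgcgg
A match was present in 20 of the 35 replication genes with a RefSeq promoter (57.1%) and in 3 of 25 mitosis genes (12%). The share was 3.33% of all RefSeq promoters and 5.38% of those of the genes tested. The replication list holds E2F targets by choice, so its share is not a result of the treatments. Among its members that were higher in the combination, 9 of 17 (52.9%) held a match. GINS2, a helicase subunit, had a log2 fold change of 0.54 (SE 0.10, adjusted p = 0.00481), MCM7 one of 0.50 (SE 0.09, adjusted p = 0.00629), and the licensing factor CDC6 one of 0.42 (SE 0.09, adjusted p = 0.0115). TYMS, the thymidylate synthase gene, averaged 34.6 ± 4.35 CPM in the combination and 21.3 ± 2.82 CPM with PRMT5i (log2 0.70, SE 0.15, adjusted p = 0.0136). A match describes these letters only and was not tested as a binding site.

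Interferon-stimulated genes were the other large group that was higher. They encode antiviral effectors and sensors, and are switched on by STAT and IRF factors that bind the interferon-stimulated response element (ISRE). Of 40 tested, 26 were higher in the combination than with PRMT5i and 0 lower, where 2.91% of all genes tested were higher. All 40 log2 fold changes were positive, from 0.04 to 1.74 with a median of 0.55, and in 33 of 40 the 4 combination libraries were all above the 4 PRMT5i libraries, a separation in either direction seen in 18.9% of all genes tested. The list mean on the log2(CPM + 0.05) scale was 4.97 to 5.27 in the combination, 4.38 to 4.68 with PRMT5i, 3.75 to 3.86 with EZH2i and 4.17 to 4.52 with DMSO. The combination libraries were therefore the highest of the 4 groups and the EZH2i libraries the lowest. The number called fell to 12 without PRMT5i replicate 3, 13 without PRMT5i replicate 4 and 15 without combination replicate 2.

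RSAD2 (ENSG00000134321.11, chr2:6865806-6898239), the antiviral enzyme viperin, had 40.3, 38.1, 33.4 and 32.3 CPM in the combination, against 17.0, 15.4, 10.1 and 12.6 CPM with PRMT5i. Every combination library was above every library of the other groups, whose means were 14.5 ± 1.27 CPM with EZH2i and 15.7 ± 3.97 CPM with DMSO (log2 1.39, SE 0.17, adjusted p = 0.000386 against PRMT5i). EPSTI1, which takes part in interferon-driven antiviral responses, had 22.2, 24.5, 23.0 and 22.6 CPM in the combination, against 13.4, 12.5, 9.96 and 10.1 CPM with PRMT5i (log2 1.01, SE 0.14, adjusted p = 0.000689). HERC5, the ligase for the ubiquitin-like ISG15, had 28.9, 33.3, 25.6 and 26.4 CPM in the combination, against 16.3, 16.7, 11.9 and 13.0 CPM with PRMT5i (log2 0.98, SE 0.11, adjusted p = 0.000241). GBP1, a guanylate-binding protein chosen after its values were seen, had the largest fold change of the list at low counts: 1.10, 1.78, 0.906 and 0.799 CPM in the combination, against 0.260, 0.389, 0.420 and 0.298 CPM with PRMT5i (log2 1.74, SE 0.39, adjusted p = 0.0186, lost without any of 4 libraries).

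ISRE letters are shown for the 6 most significant members of the list that hold them. GAAA, any 2 bases and again GAAA were searched on both strands of the 300 promoter bases, where a match on the other strand reads TTTC, any 2 bases and TTTC. Matches are in capitals with 10 bases on either side, 5′ to 3′ on the gene's strand, and overlapping matches are joined. The windows lie for HERC5 at chr4:88456984-88457013 on the plus strand, EPSTI1 at chr13:42992272-42992301 on the minus strand, IFIT3 at chr10:89327831-89327860 on the plus strand, IFI6 at chr1:27672329-27672358 on the minus strand, DTX3L at chr3:122564322-122564351 on the plus strand and IFIT5 at chr10:89414513-89414542 on the plus strand (RefSeq, GRCh38.p14).
HERC5: ctcattacagTTTCCTTTTCCTTTTCgatt
EPSTI1: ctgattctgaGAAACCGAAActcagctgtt
IFIT3: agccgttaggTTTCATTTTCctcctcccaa
IFI6: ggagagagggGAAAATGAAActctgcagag
DTX3L: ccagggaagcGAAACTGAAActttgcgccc
IFIT5: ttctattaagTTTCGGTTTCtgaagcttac
Of the 40 genes 32 had a RefSeq promoter, and 19 of those (59.4%) held the letters. The share was 3.65% of all RefSeq promoters and 3.09% of those of the genes tested. The list was chosen as interferon-stimulated, so its share is not a result of the treatments. Among its members that were higher in the combination, 12 of 20 (60%) held the letters. The RSAD2 bases printed above hold no match, but only that start was searched, so the gene may hold the letters elsewhere. IFIT3, an RNA-response protein, averaged 82.5 ± 8.83 CPM in the combination and 43.9 ± 7.78 CPM with PRMT5i (log2 0.91, SE 0.14, adjusted p = 0.00178). IFIT5, which binds foreign RNA ends, averaged 9.56 ± 1.05 CPM in the combination and 5.22 ± 1.17 CPM with PRMT5i (log2 0.87, SE 0.19, adjusted p = 0.0138), and DTX3L, a ubiquitin ligase, averaged 101 ± 9.65 CPM in the combination and 76.0 ± 5.09 CPM with PRMT5i (log2 0.41, SE 0.08, adjusted p = 0.0093).

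In cells without PRMT5i the same inhibitor moved the interferon list the other way. In EZH2i against DMSO, 23 of the 40 genes were lower (3.49% of all genes were) and 0 higher, with a median of −0.52, against −0.01 over all genes tested. Whether the 2 effects of EZH2i differ was tested by the interaction, which is the log2 effect in PRMT5-inhibited cells minus that in cells without PRMT5i. It passed for 48 genes (0.29%), 42 of them positive (0.254%) and 6 negative (0.0362%), and 27 of the 48 were on the interferon list, all positive. The list's median interaction was 1.24, against 0.01 over all genes. The 48 became 124 without DMSO replicate 2, 31 without EZH2i replicate 2, 28 without PRMT5i replicate 3 and 29 without PRMT5i replicate 4.

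IFI6, a membrane protein induced by interferon, had 83.8, 79.3, 86.4 and 72.4 CPM in the combination, against 58.6, 62.7, 51.2 and 48.0 CPM with PRMT5i, and 23.2 ± 1.75 CPM with EZH2i against 42.0 ± 2.15 CPM with DMSO. EZH2i thus went with more IFI6 on top of PRMT5i (log2 0.55, adjusted p = 0.00401) and with less of it alone (log2 −0.85, adjusted p = 0.000145), an interaction of 1.40 (SE 0.14, adjusted p = 0.000143). MX1, an antiviral GTPase, averaged 116 ± 18.0 CPM in the combination and 70.1 ± 15.9 CPM with PRMT5i (log2 0.72, SE 0.16, adjusted p = 0.0152, lost without any of 4 libraries), and 20.4 ± 2.77 CPM with EZH2i against 41.2 ± 5.47 CPM with DMSO (log2 −1.01), with an interaction of 1.74 (SE 0.23, adjusted p = 0.00146). OAS1, which makes the activator of an antiviral RNase, had an effect of 0.68 with PRMT5i and −0.71 without it (interaction 1.39, adjusted p = 0.000182). MX2 had one of 0.46 with PRMT5i (adjusted p = 0.023, lost without any of 5 libraries) and −0.92 without it (interaction 1.38, adjusted p = 0.000442). EPSTI1, RSAD2 and HERC5 had interactions of 1.65, 1.5 and 1.27 (adjusted p = 0.000794, 0.00865 and 0.00118), and their effects without PRMT5i were −0.64, −0.11 and −0.30.

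CXCL10, an interferon-induced chemokine, had the largest interaction of the named genes, 3.6 (SE 0.36, adjusted p = 0.000143). It had 5.51, 7.25, 6.04 and 5.51 CPM in the combination, against 5.197, 4.22, 3.55 and 3.70 CPM with PRMT5i, and 0.896 ± 0.0423 CPM with EZH2i against 7.46 ± 3.06 CPM with DMSO. The interaction came mainly from the low EZH2i libraries (log2 −3.06 against DMSO), since the effect on top of PRMT5i, 0.54 (SE 0.23), did not pass (adjusted p = 0.259). IFITM1, a membrane protein that blocks virus entry, likewise had an interaction of 1.55 (adjusted p = 0.000794) while its 0.42 against PRMT5i did not pass (adjusted p = 0.0753). IFITM2 shares 32.5% of its exon bases, so its value is uncertain. The interaction calls of CXCL10, IFI6, OAS1, MX1, MX2, EPSTI1, RSAD2, HERC5 and IFITM1 held without any 1 of the 16 libraries.

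**Figure D3:**
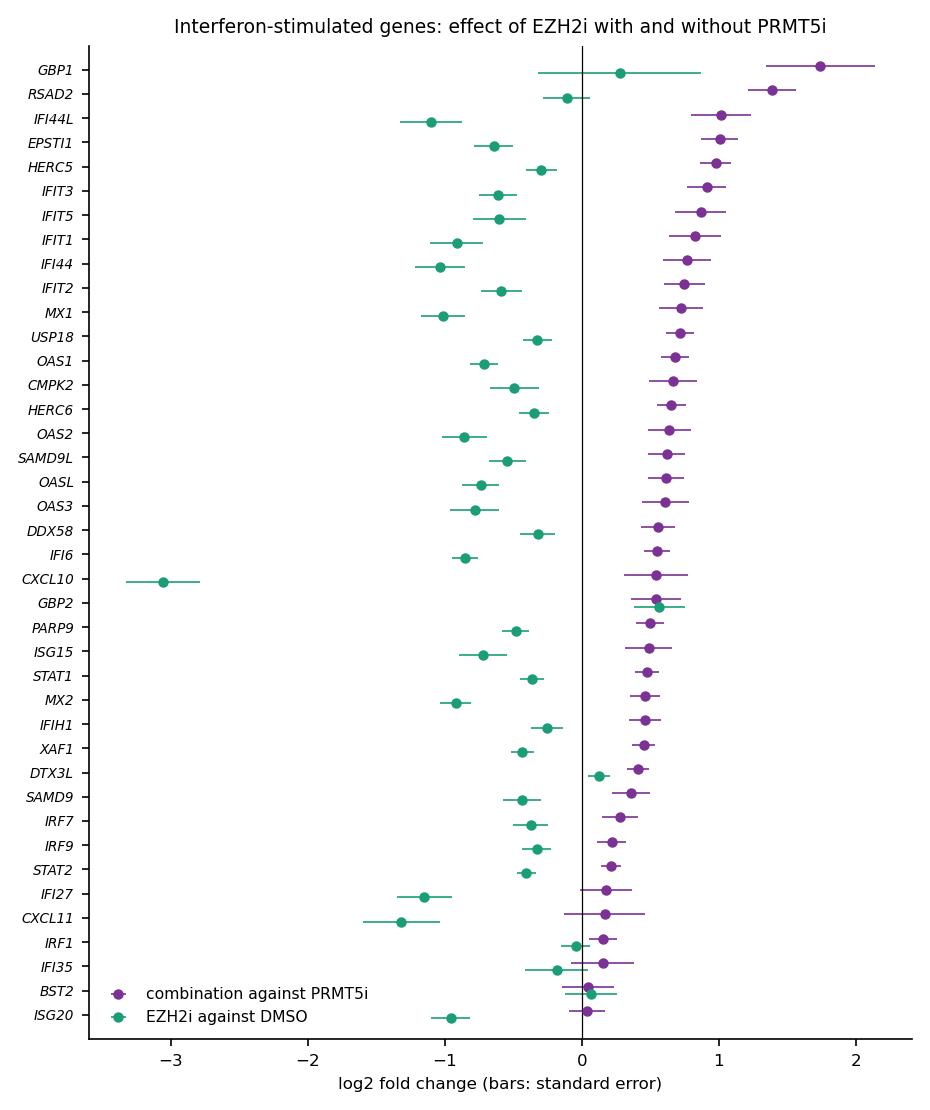
Log2 fold change of the 40 tested interferon-stimulated genes, ordered by the combination against PRMT5i, with that effect and the effect of EZH2i against DMSO as points and standard errors as bars. All 40 points of the combination against PRMT5i lie right of 0, and 36 of the 40 points of EZH2i against DMSO lie left of it.

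Genes that were lower in the combination included some of antigen presentation and of monocytes. MHC class II molecules show peptides to helper T cells, with HLA-DRA and HLA-DRB1 as chains of HLA-DR, HLA-DMA as a peptide loading factor and CIITA as the master activator. Of 10 MHC class II genes tested, 4 were lower and 0 higher (1.24% of all genes tested were lower), with a median of −0.62. HLA-DRA (ENSG00000204287.13, chr6:32439842-32445046) had 12.2, 12.4, 15.1 and 15.4 CPM in the combination, against 28.3, 24.4, 29.3 and 31.7 CPM with PRMT5i. All combination libraries were below all PRMT5i libraries and still above the 1.71 ± 0.333 CPM of EZH2i and the 2.69 ± 0.574 CPM of DMSO (log2 −1.04, SE 0.14, adjusted p = 0.000689 against PRMT5i, and 3.40 in PRMT5i against DMSO). HLA-DMA had 2.85, 3.30, 3.27 and 2.56 CPM in the combination, against 5.62, 5.90, 6.56 and 6.64 CPM with PRMT5i (log2 −1.04, SE 0.14, adjusted p = 0.000689). HLA-DRB1, whose reads may be shared with its paralogs, had 2.35 ± 0.463 CPM in the combination and 4.84 ± 0.203 CPM with PRMT5i (log2 −1.04, SE 0.18, adjusted p = 0.00417). CIITA, chosen after its values were seen, had 3.79 ± 0.395 CPM in the combination and 6.31 ± 0.835 CPM with PRMT5i (log2 −0.73, SE 0.20, adjusted p = 0.0448), a call lost without any of 7 of the 8 libraries. The list mean stayed well above the groups without PRMT5i, at 1.43 to 1.78 in the combination, 2.08 to 2.29 with PRMT5i, −0.20 to 0.00 with EZH2i and 0.08 to 0.15 with DMSO on the log2(CPM + 0.05) scale.

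Of 20 monocyte and macrophage markers tested, 4 were lower and 0 higher (1.24% of all genes tested were lower), with a median of −0.31. S100A8, a calcium-binding protein of monocytes and neutrophils, had 0.558, 0.6002, 0.494 and 0.606 CPM in the combination, against 1.68, 1.28, 2.01 and 2.36 CPM with PRMT5i. The combination level was near the 0.417 ± 0.0389 CPM of DMSO and above the 0.131 ± 0.0464 CPM of EZH2i (log2 −1.69, SE 0.21, adjusted p = 0.000405 against PRMT5i). Its partner S100A9, chosen after its values were seen, had 1.71 ± 0.746 CPM in the combination and 4.12 ± 1.35 CPM with PRMT5i (log2 −1.28, adjusted p = 0.0215, lost without any of 4 libraries). VCAN, a proteoglycan, had 2.79, 2.59, 3.32 and 2.98 CPM in the combination, against 4.92, 5.84, 8.82 and 8.90 CPM with PRMT5i (log2 −1.28, SE 0.24, adjusted p = 0.00674), with 3.26 ± 0.740 CPM in EZH2i and 7.92 ± 2.48 CPM in DMSO. IRF8, a transcription factor of monocytes and dendritic cells, had 312, 306, 304 and 295 CPM in the combination, against 406, 392, 393 and 389 CPM with PRMT5i, a small but uniform difference (log2 −0.38, SE 0.07, adjusted p = 0.00536).

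Of 34 chemokine, interleukin and receptor genes tested, 5 were lower and 0 higher (1.24% of all genes tested were lower), with a median of −0.19. TNF had 23.4, 20.01, 29.8 and 25.6 CPM in the combination, against 42.5, 44.5, 52.1 and 47.9 CPM with PRMT5i (log2 −0.92, SE 0.20, adjusted p = 0.0142, lost without PRMT5i replicate 3 or combination replicate 2). CCL2, a chemokine that attracts monocytes, had 2.25, 1.66, 1.81 and 2.40 CPM in the combination, against 5.48, 4.42, 4.85 and 4.67 CPM with PRMT5i (log2 −1.26, SE 0.20, adjusted p = 0.00244). Both were also lower with EZH2i than with DMSO: TNF at 15.2 ± 1.71 against 32.7 ± 10.9 CPM, and CCL2 at 0.228 ± 0.0759 against 1.04 ± 0.305 CPM. The receptor genes CXCR3, CXCR2 and IL7R had log2 fold changes of −0.88, −0.56 and −0.50 (adjusted p = 0.0142, 0.0451 and 0.0307). The call was lost without PRMT5i replicate 3 for CXCR3, without any of the 8 libraries for CXCR2 and without any of 6 for IL7R. The number of list members called went down to 1 without PRMT5i replicate 3, and to 3 without PRMT5i replicates 1, 2 or 4 or combination replicates 2, 3 or 4.

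Adhesion genes went both ways. ITGA6 (ENSG00000091409.14, chr2:172427354-172506282), the α6 chain of laminin-binding integrins, had 2.33, 1.78, 2.17 and 2.18 CPM in the combination, against 6.48, 5.84, 5.62 and 5.10 CPM with PRMT5i (log2 −1.45, SE 0.16, adjusted p = 0.000236). The combination libraries were closer to the 1.47 ± 0.355 CPM of DMSO, and EZH2i cells had 0.749 ± 0.123 CPM. ITGAL, the α chain of LFA-1, averaged 757 ± 45.0 CPM in the combination and 993 ± 38.1 CPM with PRMT5i (log2 −0.39, adjusted p = 0.0275, lost without any of 6 libraries), while ITGA5, the α chain of the fibronectin receptor, averaged 567 ± 19.8 CPM in the combination and 402 ± 48.6 CPM with PRMT5i (log2 0.50, SE 0.09, adjusted p = 0.00486). These were the 2 lower and 1 higher of 16 integrin genes tested, where 1.24% of all genes tested were lower and 2.91% higher. AMICA1, an adhesion molecule of leukocytes, had 15.3, 18.2, 18.5 and 16.6 CPM in the combination, against 28.9, 27.5, 35.6 and 32.8 CPM with PRMT5i (log2 −0.86, SE 0.12, adjusted p = 0.000696), and remained far above its 2.97 ± 0.442 CPM with EZH2i and 4.29 ± 0.5997 CPM with DMSO. CD48, a ligand of a natural killer cell receptor, had 1.79, 1.27, 1.70 and 1.74 CPM in the combination, against 4.997, 4.40, 5.16 and 5.69 CPM with PRMT5i (log2 −1.64, SE 0.15, adjusted p = 7.04e-05). It was lower with EZH2i alone as well, at 1.99 ± 0.266 CPM against 5.66 ± 0.907 CPM with DMSO, and AL121985.1 on the other strand overlaps 29.8% of its exon bases.

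The remaining strongly lower genes belonged to no list or to lists of other lineages. FCER2, the low-affinity IgE receptor CD23, had 9.69, 8.22, 10.98 and 10.1 CPM in the combination, against 17.3, 18.4, 20.6 and 18.4 CPM with PRMT5i (log2 −0.94, SE 0.15, adjusted p = 0.00281). AGT, the angiotensinogen gene, averaged 2.66 ± 0.330 CPM in the combination and 5.66 ± 0.560 CPM with PRMT5i (log2 −1.09, SE 0.16, adjusted p = 0.0014). RBM47, an RNA-binding protein, averaged 5.53 ± 0.202 CPM in the combination and 11.3 ± 1.41 CPM with PRMT5i (log2 −1.04, SE 0.14, adjusted p = 0.000689). NAIP, an inflammasome sensor with near-identical copies nearby and so of uncertain count, averaged 24.6 ± 1.99 CPM in the combination and 44.3 ± 9.95 CPM with PRMT5i (log2 −0.85, adjusted p = 0.00751), and SEMA6B, a semaphorin, averaged 3.14 ± 0.718 CPM in the combination and 5.96 ± 0.617 CPM with PRMT5i (log2 −0.93, adjusted p = 0.0495, lost without any of 7 libraries).

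Some genes were lower with PRMT5i than with DMSO and lower again in the combination. ACVRL1, a receptor of the TGF-β family, averaged 2.11 ± 0.296 CPM in the combination, 3.72 ± 0.555 CPM with PRMT5i, 2.90 ± 0.278 CPM with EZH2i and 5.44 ± 0.476 CPM with DMSO (log2 −0.82, SE 0.14, adjusted p = 0.00304 against PRMT5i). TRIM7, a ubiquitin ligase, had log2 fold changes of −0.72 against PRMT5i (adjusted p = 0.0105) and −2.04 against DMSO. MAN1C1, a Golgi mannosidase, had −0.67 against PRMT5i (adjusted p = 0.0377, lost without any of 7 libraries) and −1.86 against DMSO. IER3, a stress-induced survival factor, had −0.65 against PRMT5i (adjusted p = 0.0123, lost without PRMT5i replicate 3) and −1.21 against DMSO, with 26.5% of its exon bases overlapped by IER3-AS1.

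**Figure D4:**
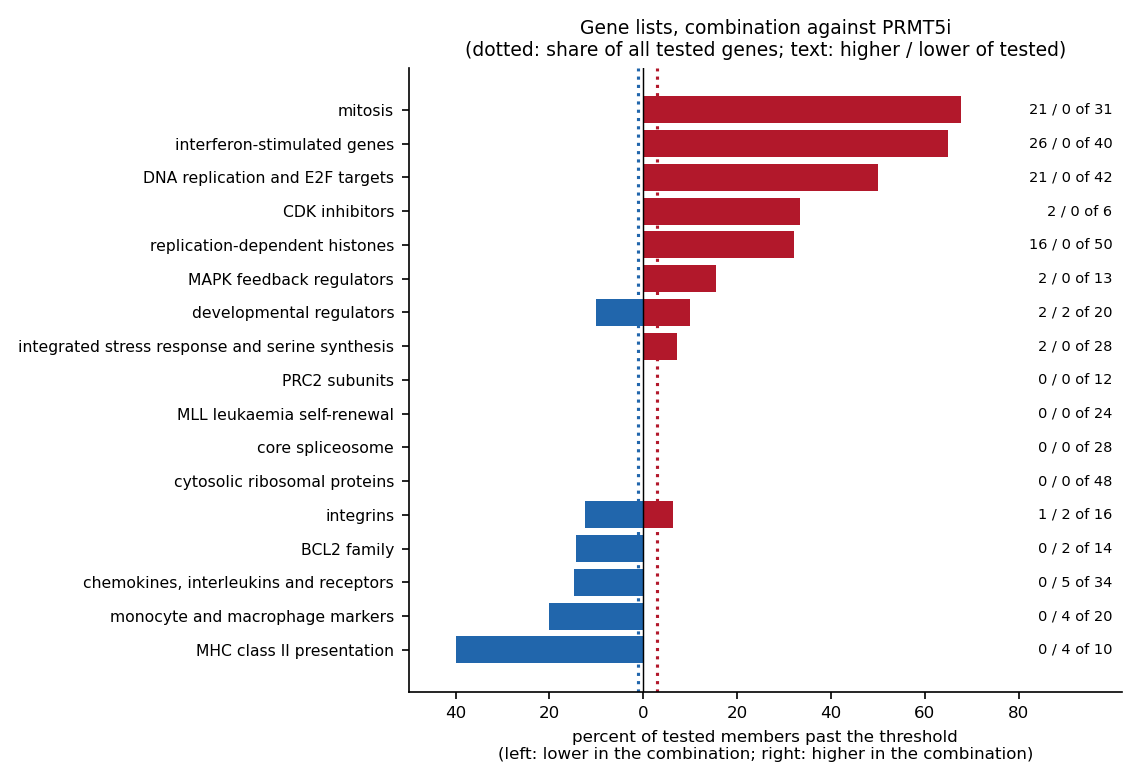
Percent of tested members that were higher (right) or lower (left) in the combination than with PRMT5i, for 17 gene lists, with the counts at the right and dotted lines at the 2.91% and 1.24% of all tested genes that were higher and lower. Mitosis, interferon-stimulated, replication and histone genes extend to the right only, MHC class II, monocyte and chemokine genes to the left only, and the PRC2, MLL self-renewal, spliceosome and ribosomal protein lists have no bar.

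Across all genes the effect of EZH2i was compared with and without PRMT5i, in 2 comparisons that share no library. A total of 283 genes passed in both, and 261 of them changed in the same direction, 178 higher and 83 lower. These 261 make up 37.9% of the genes called in the combination against PRMT5i and 20.7% of those called in EZH2i against DMSO. Of the 22 that changed in opposite directions, 21 were higher in the combination than with PRMT5i and lower with EZH2i than with DMSO, and 16 of the 22 are on the interferon list. The only one the other way was PDGFRB, the platelet-derived growth factor receptor β, which averaged 3.28 ± 0.309 CPM in the combination and 4.85 ± 0.889 CPM with PRMT5i (log2 −0.57, adjusted p = 0.0361, lost without any of 6 libraries), and 1.21 ± 0.172 CPM with EZH2i against 0.763 ± 0.0772 CPM with DMSO. Without DMSO replicate 2 the same-direction count was 445, leaving out DMSO replicate 4 gave 161, and it fell to 133, 148, 161, 164, 172 and 173 without PRMT5i replicates 3 and 4, combination replicates 1, 2 and 4, and PRMT5i replicate 2. The 1259 genes of EZH2i against DMSO became 4591 without DMSO replicate 2, 499 and 737 without DMSO replicates 4 and 3, 728 and 758 without EZH2i replicates 2 and 1, and 135 when only those 2 groups were fitted.

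**Figure D5:**
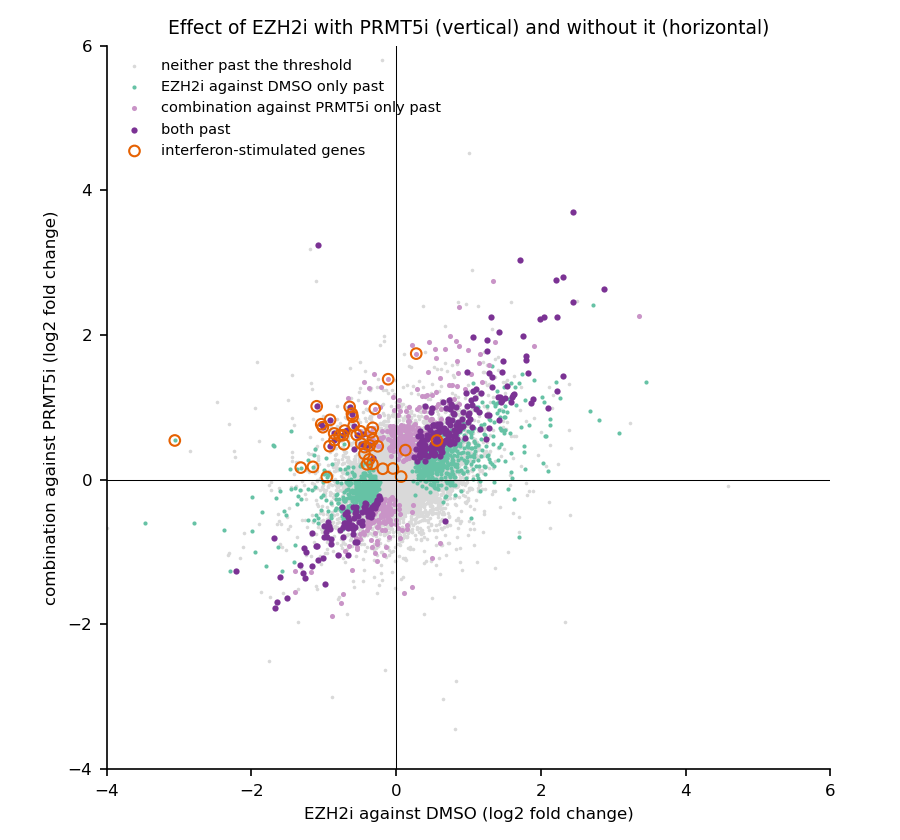
Log2 fold change of each tested gene in the combination against PRMT5i (vertical) and in EZH2i against DMSO (horizontal), with colours for the comparisons in which it passed and rings on interferon-stimulated genes; 15 genes lie outside the axes. Genes past in both lie mostly at the upper right and lower left, and the ringed genes lie mostly in the upper left.

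Besides the interferon genes, the interaction passed for CDC45 (0.64, SE 0.12, adjusted p = 0.0259) and HIST1H4I (0.78, SE 0.15, adjusted p = 0.0389), whose calls were each lost without any of 11 of the 16 libraries. CTH, which makes cysteine from cystathionine, had 7.99, 7.16, 9.0 and 10.6 CPM in the combination, against 5.76, 6.48, 5.06 and 4.996 CPM with PRMT5i (log2 0.64, SE 0.12, adjusted p = 0.00537), and 18.8 ± 1.40 CPM with EZH2i against 25.8 ± 0.912 CPM with DMSO (log2 −0.46). Its interaction was 1.09 (SE 0.16, adjusted p = 0.00398). Negative interactions were seen for CXCR3 (−1.48, adjusted p = 0.0424, lost without any of 13 libraries and, at adjusted p = 0.0533, with scaling to total counts) and PDGFRB (−1.24, adjusted p = 0.0211, lost without any of 8). A further pair of genes, chosen after their values were seen, had risen strongly with EZH2i alone. FAM46C, a poly(A) polymerase, averaged 13.9 ± 0.290 CPM in the combination and 10.1 ± 0.587 CPM with PRMT5i, and 13.7 ± 1.41 CPM with EZH2i against 4.01 ± 1.13 CPM with DMSO, an interaction of −1.30 (SE 0.21, adjusted p = 0.00865). SIGLEC6, a sialic acid-binding receptor, averaged 10.4 ± 0.868 CPM in the combination and 9.61 ± 0.346 CPM with PRMT5i, and 10.5 ± 1.18 CPM with EZH2i against 5.31 ± 0.678 CPM with DMSO, an interaction of −0.86 (SE 0.15, adjusted p = 0.0151).

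Integrated stress response and serine synthesis genes, which ATF4 drives when amino acids are short, were strongly lower with PRMT5i. In PRMT5i against DMSO 26 of 28 tested were lower (18.3% of all genes were), with a median of −1.57. In the combination 2 of the 28 were higher than with PRMT5i (2.91% of all genes tested were) and 0 lower, with a median of 0.28. The list mean was 4.11, 3.96, 4.75 and 4.80 in combination replicates 1 to 4, against 4.17, 4.15, 4.16 and 4.00 with PRMT5i, on the log2(CPM + 0.05) scale, so that only replicates 3 and 4 of the combination stood above the PRMT5i libraries. The median fold change was −0.06 in replicates 1 and 2 alone and 0.58 in replicates 3 and 4 alone, where 14 members were higher. Leaving out 1 library gave 1 called member without PRMT5i replicate 3 or 4 or combination replicate 4, and 4 without combination replicate 1 or 2. SLC7A11, the cystine transporter, followed this division with 13.2, 12.9, 27.1 and 33.5 CPM in the combination, against 8.995, 9.57, 6.93 and 8.48 CPM with PRMT5i, and 57.2 ± 13.9 CPM with EZH2i against 78.1 ± 23.9 CPM with DMSO (log2 1.35, SE 0.30, adjusted p = 0.0168, lost without any of 3 libraries).

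Smaller groups had few members past the threshold, and are to be read beside the 2.91% of all genes tested that were higher and the 1.24% that were lower. Of 20 tested developmental regulators (125 listed), the classic PRC2 targets, 2 were higher and 2 lower. IRX5 and WT1 were higher (log2 0.69 and 0.46, adjusted p = 0.032 and 0.0398, lost without any of 6 and 7 libraries), and POU4F1 and KLF4 lower (log2 −1.77 and −0.54, adjusted p = 0.0168 and 0.0438, lost without any of 3 and 7), where KLF4 was chosen after its values were seen. POU4F1 was under 1 CPM in every library of both groups, and AL445209.1 overlaps 27.7% of its exon bases. INHBA, a gene of the TGF-β pathway that encodes the activin A subunit, averaged 50.5 ± 6.95 CPM in the combination and 28.2 ± 5.62 CPM with PRMT5i (log2 0.84, SE 0.16, adjusted p = 0.00555). Of 24 immediate early genes, EGR2 was higher (log2 1.11, adjusted p = 0.0102), and KLF10 and IER3 were lower (KLF10 −0.57, adjusted p = 0.004). Of 14 BCL2 family genes, the pro-apoptotic BAK1 and BAD were lower (−0.31 and −0.41, adjusted p = 0.0337 and 0.0405), and both calls were lost without any of 7 libraries and with scaling to total counts. TAP2, the peptide transporter of MHC class I, was the 1 of 15 class I genes to change (log2 0.41, adjusted p = 0.024, lost without any of 5), and AL669918.1 overlaps 32.3% of its exon bases. MT1H was the 1 of 7 metallothionein genes to change (log2 0.95, adjusted p = 0.0307, lost without any of 7), among near-identical copies.

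Markers of other lineages changed in isolated genes, where 2.91% of all genes tested were higher and 1.24% lower. Of 12 T and NK cell markers tested, CD3D and TRAC were higher (log2 1.01 and 0.50, adjusted p = 0.00244 and 0.0221, lost for TRAC without any of 6 libraries) and IL7R was lower, while the defining marker CD3E reached at most 0.0566 CPM in the combination and 0.0246 CPM with PRMT5i. Of 11 B cell markers, IGLL1 was higher and FCER2 lower, with MS4A1 at 0 in all combination libraries and at most 0.0229 CPM with PRMT5i. Of 13 epithelial and fibroblast markers, COL1A2 and LUM were higher (log2 2.21 and 2.63, adjusted p = 0.00577 and 0.0158, lost for LUM without any of 3 libraries), at 0.981 ± 0.137 and 0.310 ± 0.0956 CPM in the combination against 0.206 ± 0.104 and 0.0462 ± 0.0338 CPM with PRMT5i, PDGFRB was lower, and CDH1 was at 0 throughout. The list means on the log2(CPM + 0.05) scale were 1.84 to 2.06 in the combination and 1.55 to 1.75 with PRMT5i for T and NK markers, 0.04 to 0.61 and 0.12 to 0.47 for B cell markers, and 0.28 to 0.52 and −0.19 to 0.16 for epithelial and fibroblast markers.

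No member passed in either direction among 12 PRC2 subunits, 22 PRC1 subunits, 12 genes of the PRMT family and PRMT5 partners, 24 self-renewal genes of MLL leukaemia, 28 core spliceosome genes, 27 nucleolar and MYC targets, 13 mitochondrially encoded proteins, 16 endoplasmic reticulum chaperones, 23 sterol synthesis genes, 12 WNT, BMP and hedgehog ligands and inhibitors, 2 erythroid markers, 5 megakaryocyte markers and 48 cytosolic ribosomal proteins. Their medians ran from −0.19 for ribosomal proteins to 0.26 for mitochondrially encoded proteins. All 48 ribosomal protein genes had a negative log2 fold change, from −0.28 to −0.02, but none passed. In 24 of the 48 the groups did not overlap, a separation in either direction seen in 18.9% of all genes tested. Scaling to total counts alone in place of TMM shifted the median of all genes to 0.08.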

How the data were processed

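RNA of 16 MOLM-13 libraries was isolated on RNeasy Plus columns and sequenced as paired ends on an Illumina instrument, per the labels' protocols. The authors deposited RSEM expected counts per gene, not normalised, and per the submitters' processing notes reads were aligned with STAR 2.5.3 to GRCh38.p7. The strand setting is not given, so overlapping genes can share reads. Of the deposited values 12.0% were not whole, and they were rounded.

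Genes with enough counts (filterByExpr, 16555 of 60669) were scaled by TMM and fitted with edgeR 4.0.16 in R 4.3.3, by the quasi-likelihood test over all 16 libraries with 4 group means. P-values were adjusted by Benjamini-Hochberg over all genes tested at 0.05. The standard error is the log2 fold change over the square root of F. DESeq2 1.42.0 and limma 3.58.1 served as alternatives, with other scalings, filters and left-out libraries. No libraries were duplicates. On data simulated for the combination against PRMT5i over 16258 genes, the test found 34.8% of 66 genes changed 1.5-fold, 81.2% of 64 changed 2-fold and 96.9% of 65 changed 4-fold, with 9 false calls among 147.

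Genes were named by rule: the drug targets; 10 protein-coding genes higher and 10 lower, by size of change, at 5 CPM or more and with groups apart; up to 3 members of each list with the smallest p; genes past the threshold with PRMT5i against DMSO and with the combination against PRMT5i; and 8 interaction genes. That gave 78 genes, and 9 more were chosen after their values were seen. GINS2, MCM7, CDC6, TYMS, IFIT3, IFIT5 and DTX3L, shown for their promoter letters, and PRG2 and GATA2 are described besides these. The members and the 37 lists were chosen with earlier results of these data known. Promoters come from RefSeq (GRCh38.p14), and gene positions and types from GENCODE. Some items are not reported here.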

Additional observations from a re-analysis of the deposited data

Results flagged for a closer look

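The effect of EZH2i with PRMT5i present minus its effect without it differed from 0 for 48 genes in the interaction test of edgeR, and the 16 of them that are named are given here by value on the log2 scale. Interferon-related genes had positive interactions: CXCL10 3.6, MX1 1.74, EPSTI1 1.65, IFITM1 1.55, RSAD2 1.5, IFI6 1.40, OAS1 1.39, MX2 1.38 and HERC5 1.27. CTH had 1.09, HIST1H4I 0.78 and CDC45 0.64. Interactions were negative for CXCR3 at −1.48, FAM46C at −1.30, PDGFRB at −1.24 and SIGLEC6 at −0.86.

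In 4 named genes a single library stood apart from the other 3 of its group by Dixon's test, which by chance marks about 1 in 20 groups. SEMA6B had 6.88 CPM in PRMT5i replicate 3, against 5.58 to 5.72 CPM in the other PRMT5i libraries. CD3D had 2.77 CPM in combination replicate 3, against 4.13 to 4.41 CPM in the other combination libraries. COL1A2 had 0.360 CPM in PRMT5i replicate 1, against 0.140 to 0.175 CPM in the others, and CIITA had 3.20 CPM in combination replicate 4, against 3.95 to 4.02 CPM in the others.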

How the results depend on the processing

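No count or named gene changed direction under any setting run. List medians of opposite sign in replicates 1 and 2 alone were −0.06 for stress response and serine synthesis genes (0.28 with all replicates), 0.09 for B cell markers (−0.11) and −0.02 for granulocyte markers (0.05). In replicates 3 and 4 alone they were 0.04 for B cell markers, −0.06 for endoplasmic reticulum chaperones (0.01) and 0.02 for the BCL2 family (−0.02). The combination against PRMT5i called 688 genes, and 1064 with DESeq2, 2617 with limma voom and sample weights, 2099 when only these 2 groups were fitted (675 of the 688 among them), 510 with no filter and 869 scaled to total counts. The higher and lower genes numbered 748 and 121 with total counts, against 482 and 206 with TMM, and 1535 and 1082 with limma voom, and 1212 and 887 in the 2-group fit. DESeq2 called 355 lower. Leaving out 1 library, the counts ran from 263 to 1011 in all, 190 to 661 higher and 73 to 350 lower, each highest without DMSO replicate 1, the 1 library outside these 2 groups that was left out here. Genes past 1 on the log2 scale numbered 272 with limma voom, and 68 to 156 with 1 library left out. The interaction called 121 with DESeq2, 463 with limma voom and 28 to 124 with 1 library left out. EZH2i against DMSO called 2149 with DESeq2, 4474 with limma voom, 135 in its 2-group fit and 499 to 4591 with 1 library left out, and PRMT5i against DMSO 4898 to 6853. The cause of these differences was not tested.

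Settings chosen after seeing the data gave, with replicates 1 and 2 alone, 1 gene in all, 1 higher, 0 lower, 1 by at least 1 on the log2 scale, 0 for the interaction, 0 for EZH2i against DMSO and 1469 for PRMT5i against DMSO. With replicates 3 and 4 alone the interaction called 295. Each of these fits has fewer samples. The same-numbered libraries of the combination and PRMT5i had correlated deviations of 0.206, 0.0258, 0.236 and 0.136, so 1 of 4 pairs was not above 0.1 and the numbers were not taken to pair the libraries. Combination replicate 1 had 0.206 and 0.248 with PRMT5i replicates 1 and 2, and −0.208 and −0.213 with replicates 3 and 4. With replicates 1 and 2 against 3 and 4 as a planned term, 908 genes passed (635 higher, 273 lower), and 69 for the interaction. With the replicate block, 857 genes passed (594 higher, 263 lower), 50 for the interaction, 1430 for EZH2i against DMSO and 5939 for PRMT5i against DMSO. In the 2-group fit with the block the counts were 3436, with 1785 higher, 1651 lower and 219 by at least 1. The block ended the calls of MT1H and MAN1C1 (adjusted p = 0.0528 and 0.0522) and the interaction call of CXCR3 (0.0825). Of the 87 named genes, the block ended the call against PRMT5i for 2, total counts for 10, no filter for 9, and leaving out 1 library of the 2 groups for 10 to 29. At this depth and with 4 libraries per group, 1.5-fold changes are often missed.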

Other observations

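Of 14 tested entries named RGS, the regulators of G protein signalling, 4 were higher in the combination than with PRMT5i and 0 lower, where 2.91% of all genes tested were higher. The family was looked at after its values were seen. Beside RGS1, they were RGS2, with 6.11 ± 0.567 CPM in the combination and 2.97 ± 0.472 CPM with PRMT5i (log2 1.04, SE 0.15, adjusted p = 0.00122 in edgeR), RGS16, with 41.8 ± 3.88 and 21.3 ± 2.87 CPM (log2 0.97, adjusted p = 0.00426), and RGS13, with 0.391 ± 0.154 and 0.0269 ± 0.00901 CPM (log2 3.71, SE 0.64, adjusted p = 0.00357). RGS1, RGS2, RGS13 and RGS16 all lie on chromosome 1, and all 4 were also higher with EZH2i than with DMSO (log2 1.07, 1.05, 2.45 and 0.75).

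Eosinophil and mast cell markers had a median log2 fold change of 0.53 over 11 tested genes, but none passed. PRG2, the eosinophil major basic protein, had 476, 438, 288 and 311 CPM in the combination, against 251, 239, 105 and 113 CPM with PRMT5i (log2 1.10, SE 0.50, adjusted p = 0.296). GATA2, a transcription factor of blood progenitors and mast cells, had 50.8, 43.9, 34.2 and 30.6 CPM in the combination, against 25.4, 26.9, 16.5 and 15.2 CPM with PRMT5i (log2 0.92, SE 0.31, adjusted p = 0.115). In both groups replicates 1 and 2 lay above replicates 3 and 4 for both genes.

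On chromosome 4, 36 of 510 tested genes (7.06%) were higher in the combination, against 2.91% of all genes tested. This chromosome was picked out after the counts of all chromosomes were seen. Chromosomes 18, 6 and 21 had 4.94%, 4.91% and 4.66%, and chromosome Y had 2 of 20 tested genes (10%).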
